A study of Mus musculus with 6 samples.

Results

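The genes described here are the metalloproteinases of 3 families and the inhibitors that bind them, taken from the counts table by symbol: matrix metalloproteinases (MMP), the ADAM proteins, the ADAMTS proteins and the tissue inhibitors of metalloproteinases (TIMP). Of 26971 features in the table, 62 had such a symbol, 20 MMP, 4 TIMP, 21 ADAM and 17 ADAMTS genes. A member was tested where at least 3 libraries held 10 or more counts, which left 37 (12 MMP, 3 TIMP, 10 ADAM and 12 ADAMTS) among 14398 tested genes. The libraries were made from cortical kidney RNA of male C57BL/6 mice, 1 day after surgery, with selection of polyadenylated RNA. All 6 had ischaemia-reperfusion injury (IRI), in which renal blood flow is stopped and restored. In 3 of them, titled Cong_IRI with the treatment "IRI with IVCC", renal congestion was added, and the other 3, titled CLK_IRI with the treatment "IRI", had none. Libraries are called IRI 1 to 3 and congested 1 to 3 below, by the replicate numbers in their titles. The labels do not expand CLK or IVCC, give no age, and do not say that the libraries came from separate animals, so a p-value sets differences against the spread of these libraries alone, which may be technical. No uninjured kidney was analysed here, so none of the values shows what injury itself does to these genes.

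MMPs are zinc-dependent enzymes, made as inactive precursors, that cut collagens, laminins, fibronectin and many non-matrix proteins, and some are held at the cell surface by a membrane anchor. ADAMs are mostly transmembrane enzymes that release growth factors, cytokines and receptors from the cell surface, whereas ADAMTS enzymes are secreted and cut proteoglycans and procollagens. TIMPs bind the active site of these enzymes with different preferences. In the injured kidney these proteins are known for their part in matrix turnover, shedding of tubular surface proteins and leukocyte passage.

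Total counts ranged from 10865860 to 14350425 per library. Proximal tubule markers were present in every library (summed level of 7 genes, 2314 to 7819 CPM, read counts scaled to a common library size). Replicate 1 of both groups stood apart on the first axis of a principal component analysis of 1000 genes of highest variance (39.5 and 42.3, against -32.9 to -10.1 in the other 4 libraries). In those 2 libraries the 6 markers of injured tubule summed to 46870 and 64270 CPM, against 6153 to 18010 in the others, and the proximal tubule markers to 2922 and 2314, against 6868 to 7819. The 8 neutrophil markers in the table summed to 73.0, 8.79 and 5.03 CPM in IRI 1, 2 and 3 and to 215.6, 14.9 and 7.53 in congested 1, 2 and 3. Values below are therefore also given without replicate 1 where they rest on it. In bulk tissue, fewer cells of a type and less RNA per cell cannot be told apart.

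Per length of the gene's annotated exons, Timp3 had the highest mean level of all tested members. Its mean level was 90.7 ± 50.1 CPM per kb (SD, n = 3) in IRI and 141.6 ± 45.0 in congested kidney. Adam9 (33.0 CPM per kb over all libraries), Adam10 (24.2), Timp1 (22.9) and Adamts1 (17.8) followed, and the ranges of these 4 genes overlapped among libraries. In IRI 1 alone Timp1 stood above Timp3, at 50.2 against 41.3 CPM per kb, whereas in IRI 3 they stood at 2.98 and 141.6. Adam15 (8.02), Timp2 (7.07), Adam17 (6.44), Mmp7 (5.65) and Mmp14 (1.95) completed the 10 highest. Of 12 tested MMPs, 11 (all but Mmp7) had a mean of 1.95 CPM per kb or less. The level of Mmp7 rested on replicate 1: it was 18.3 CPM per kb in IRI 1, above the 17.1 of Adam10 there, and 12.1 in congested 1. Over the other 4 libraries Mmp7 had a mean of 0.867 CPM per kb, below Mmp23 (1.95) and Mmp14 (1.79), and Adamts1 (13.4) stood above Timp1 (12.5).

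**Figure D1:**
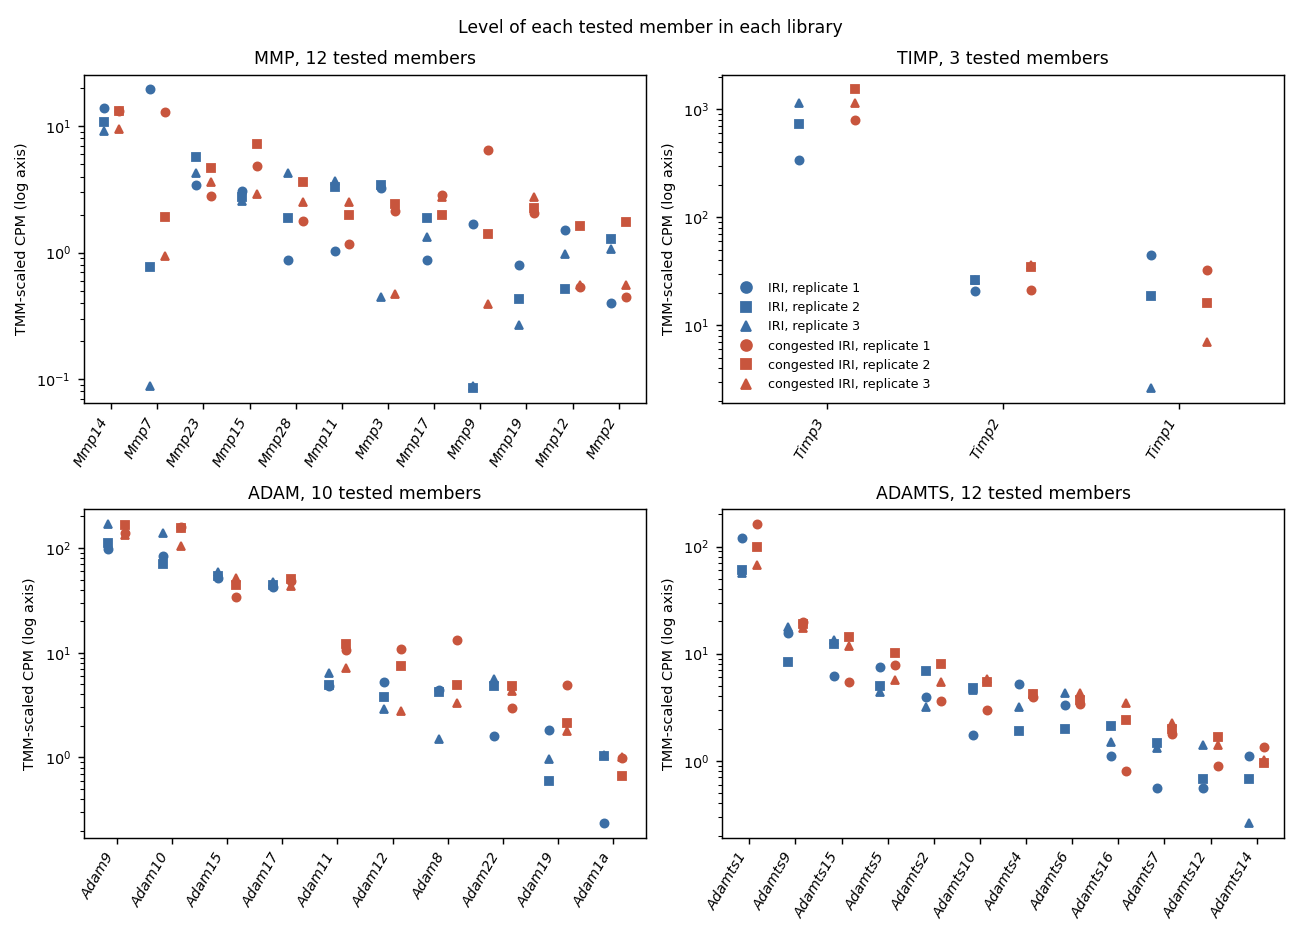
TMM-scaled CPM (vertical log axis) of the 37 tested members, ordered within each family by mean CPM. Each point is 1 library, with IRI in blue, congested IRI in red, and circle, square and triangle for replicates 1, 2 and 3. The groups overlap for all genes but Mmp19, Mmp17, Adam11 and Adamts7, and replicate 1 is high in both groups for Mmp7 (19.5 and 12.9 CPM) and Timp1 (44.6 and 32.8 CPM).

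Congestion was compared with its absence to ask how it alters the injured cortex. The log2 ratio is congested over IRI, and SE its standard error. No member passed edgeR's quasi-likelihood test at an adjusted p under 0.05 (0 of 37, against 0.00% of all 14398 genes), and neither DESeq2 nor limma-voom called any. At an unadjusted p under 0.05 edgeR gave 3 members (Mmp19, Adam11 and Adam19), all above 0, where 0.979% of all genes lay above and 1.02% below 0 with such a p. DESeq2 gave 3 members, against 355 of all 14398 genes in either direction, and limma-voom gave 2, against 281 of 14398. Of the log2 ratios, 29 of 37 were above 0, against 49.7% of all genes, and their median was 0.32, against 0.00 over all genes. By family this was 7 of 12 MMPs (median 0.06), 2 of 3 TIMPs (0.32), 9 of 10 ADAMs (0.37) and 11 of 12 ADAMTS genes (0.45). The 3 congested libraries all lay above the 3 IRI libraries in 4 members, against 3.38% of genes, and all below in 0 members, against 3.10% of genes. The filter did not bear on both groups alike. Mmp7, Mmp19, Adam19, Adamts7, Adamts12 and Adamts14 had 10 or more counts in every congested library but not in every IRI library. Adamts16 had the reverse. With 10 counts required in all 6 libraries, 25 members were tested, none of these among them. Of the 25, 20 lay above 0 (median 0.28), and 2 had an unadjusted edgeR p under 0.05, against 290 of 12918 genes. Within libraries of equal replicate number, 13 of the 37 members were higher in the congested library of all 3 pairs and 2 were lower, where 13.1% of all genes were higher and 13.1% lower. The lean was weaker in pair 3. In pairs 1, 2 and 3, 26, 30 and 20 of 37 members were higher in the congested library (medians 0.35, 0.41 and 0.07). The medians over all genes were 0.005, 0.008 and -0.002. For ADAM genes the numbers were 9, 7 and 3 of 10 (medians 0.98, 0.41 and -0.11). Some lists of cell type markers leaned to either side in the same comparison. The 4 tested neutrophil markers were all above 0 (median log2 ratio 1.63), as were 8 of 10 macrophage markers (0.55). The macrophage sum was raised in congested 1 alone. It was 315.3, 104.1 and 113.6 CPM in congested 1, 2 and 3, against 107.1, 103.8 and 115.5 in IRI 1, 2 and 3. Lyz2 alone gave 197.1 CPM of the sum in congested 1, against 42.0 in IRI 1. C1qa and C1qb lay below 0, at -0.21 and -0.17, so the sum does not stand for every macrophage marker. Smooth muscle markers lay above 0 in 5 of 5 (0.31; Acta2 1.17, SE 0.40, groups apart). Endothelial markers did so in 5 of 7 (0.24; Cdh5 0.80, SE 0.30, groups apart), with Emcn (-0.23) and Tie1 (-0.15) below 0. By contrast, 0 of 13 markers of thick ascending limb, distal convoluted tubule and collecting duct lay above 0. Fibroblast and pericyte markers lay above 0 in 6 of 7 (median 0.28), podocyte markers in 5 of 5 (0.11) and proximal tubule markers in 4 of 7 (0.01). Injured tubule markers did so in 2 of 6 (-0.085), red blood cell markers in 0 of 4 (-0.27) and lymphocyte markers in 0 of 1 (-0.42). edgeR called none of the markers, and their part in the members' ratios was not tested. After removal of each library's smooth dependence on transcript length and GC, 26 of 37 members lay above 0 with a median of 0.21.

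**Figure D2:**
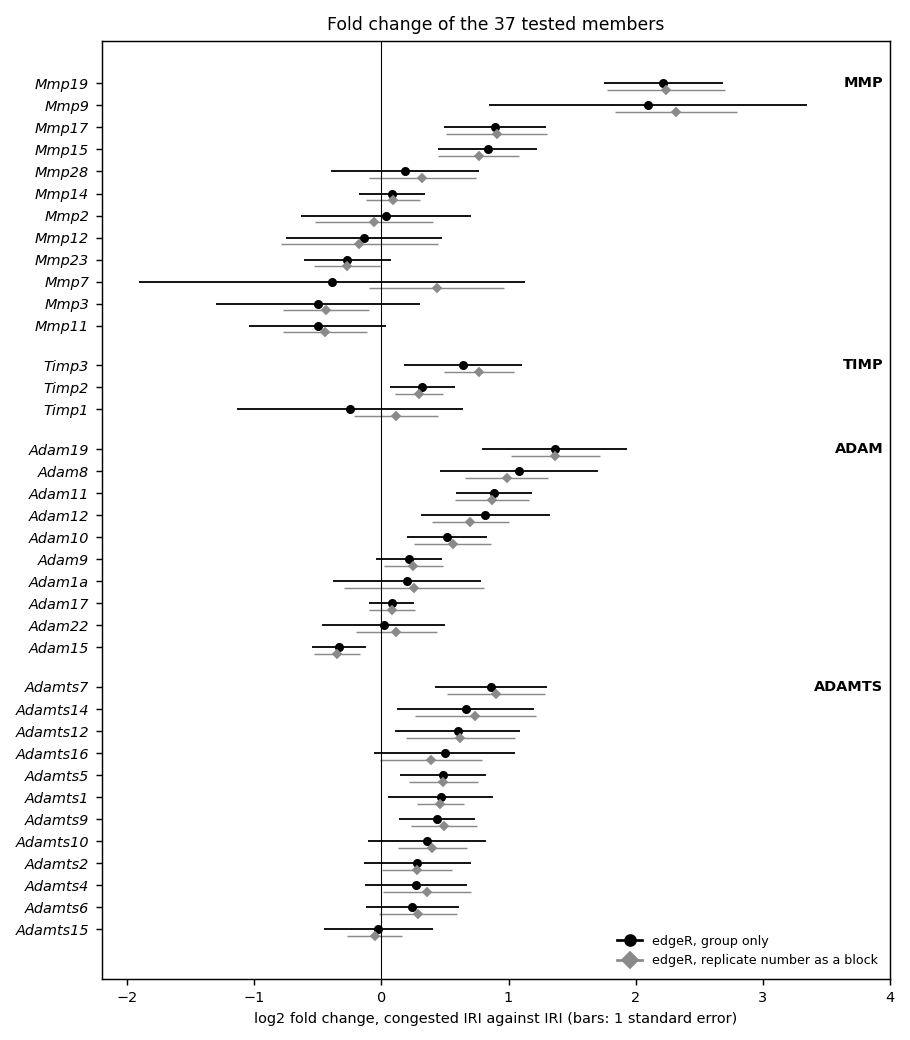
Log2 ratio of congested IRI against IRI kidney (horizontal axis) for the 37 tested members in 4 families. Black circles are edgeR with group only, grey diamonds edgeR with the replicate number as a block, and bars are 1 standard error. Most points lie right of 0, Mmp19 farthest at 2.22, and Mmp7, Timp1 and Mmp2 (0.03 and -0.06) change side between the fits.

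With replicate number added as a block, edgeR also called 0 members (0.00% of genes), and 9 had an unadjusted p under 0.05, against 7.05% of all genes in either direction. These 9 were Mmp19, Mmp9, Mmp15, Timp3, Adam11, Adam19, Adam8, Adamts1 and Adamts7, all above 0, where 4.06% of genes were above 0 with such a p. When replicate 3 was left out of both groups in this fit, which leaves 1 residual degree of freedom, 13 of 37 members were called (35.1%), against 38.1% of all genes, a share close to that of the whole table. The 13 were Timp3 (1.15, adjusted p = 5.59e-07 in edgeR), Adam10 (1.03, 4.07e-07), Adam11 (1.23, 0.000346), Mmp9 (2.30, 0.000445), Adamts1, Adam9, Adam12, Adam19, Adamts9, Mmp19, Mmp15 and Adam8, all above 0, and Adam15 (-0.43, 0.0121). Without replicate 1 of both groups the same fit called 1 member, Mmp19, against 0.0695% of genes, and without replicate 2 it called 0 members against 0.0625%.

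Among the inhibitors none passed the test, and the 3 measured TIMPs followed different patterns over the libraries. Timp3, which binds to the matrix and inhibits ADAM17 and the aggrecan-cutting ADAMTS enzymes as well as MMPs, held 336.5, 726.3 and 1153 CPM in IRI 1, 2 and 3 and 793.9, 1526 and 1138 CPM in the congested ones. IRI 1 was the lowest and congested 2 the highest library, and the groups overlapped. The log2 ratio was 0.64 with SE 0.47 (edgeR adjusted p = 0.935), and 0.77 with SE 0.28 with the block (edgeR adjusted p = 0.578). Pairs 1 and 2 differed by 1.24 and 1.07 on the log2 scale and pair 3 by -0.02. Leaving out IRI 1 gave 0.30, IRI 3 1.12 and congested 2 0.39. The gene lies on chr10:86300372-86349506 of GRCm38 and shares 1733 exonic bases with Syn3 on the opposite strand.

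Timp2, a secreted inhibitor that also takes part in activation of pro-MMP2 by MMP14, held 20.8, 26.5 and 26.1 CPM in IRI and 21.3, 34.6 and 35.9 CPM in congested 1, 2 and 3. Only replicate 1 was alike in both groups, so the groups overlapped, with a log2 ratio of 0.32 (SE 0.25, edgeR adjusted p = 0.935). Timp1, a soluble inhibitor induced in many injured tissues, held 44.6, 18.9 and 2.65 CPM in IRI and 32.8, 15.97 and 6.98 CPM in congested 1, 2 and 3. Its spread within each group, 22.0 ± 21.1 and 18.6 ± 13.1 CPM (SD, n = 3), was several times the difference between them. The log2 ratio was -0.25 (SE 0.89, edgeR adjusted p = 0.969), 0.11 with the block and 0.31 after length and GC removal. It was 0.79 without IRI 1, -0.77 without IRI 3, -0.94 without congested 1 and 0.14 without congested 3. Timp1 and Timp3 ran in opposite order over the IRI libraries, and in both groups their ratio was lowest in replicate 1 and highest in replicate 3. The ratio of Timp3 to Timp1 counts was 7.55, 38.5 and 435.0 in IRI 1, 2 and 3 and 24.2, 95.6 and 163.0 in congested ones. Timp4 was not tested, with at most 4 counts in a library.

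Mmp19 had the smallest p of all members. It encodes a secreted MMP that cuts basement membrane proteins, and it lies on chr10:128790910-128800824. Levels were 0.795, 0.427 and 0.265 CPM in IRI 1, 2 and 3 (10, 5 and 3 counts) and 2.06, 2.27 and 2.75 CPM in the congested libraries (23, 31 and 35 counts). Every congested library lay above every IRI library, by 1.22, 2.04 and 2.76 on the log2 scale within pairs 1, 2 and 3. The fold was 4.65, at 0.496 ± 0.271 against 2.36 ± 0.350 CPM (SD, n = 3), a log2 ratio of 2.22 with SE 0.47 (edgeR unadjusted p = 0.00172, adjusted p = 0.935). Over the fits without 1 library the log2 ratio ran from 1.93 to 2.74, with adjusted p-values of 0.175 to 1.00. It was called only in edgeR with the block and without replicate 1 (2.82, adjusted p = 0.0111) or replicate 3 (1.82, adjusted p = 0.00763) of both groups, and not without replicate 2 (2.18, adjusted p = 0.367). Mmp19 shares 789 exonic bases with Tmem198b on the opposite strand, and the strand setting of the counting is not given in the sources used here.

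Both membrane-anchored MMPs with the next smallest p-values also lay higher on average in the congested kidney without passing the test. Mmp17 (MT4-MMP, held by a lipid anchor) lay at 0.874, 1.88 and 1.33 CPM in IRI and 2.87, 1.98 and 2.75 CPM in congested 1, 2 and 3. Its counts were 11, 22 and 15 in IRI and 32, 27 and 35 in the congested libraries. The groups did not overlap, although IRI 2 and congested 2 were only 0.07 apart on the log2 scale (log2 ratio 0.89, SE 0.40, edgeR adjusted p = 0.935). Mmp15 (MT2-MMP, a transmembrane enzyme) lay at 3.10, 2.73 and 2.56 CPM in IRI and 4.85, 7.25 and 2.90 CPM in the congested libraries, with congested 3 inside the IRI range. Its log2 ratio of 0.84 (SE 0.39, edgeR adjusted p = 0.935) was 0.46 without congested 2 and 1.11 without congested 3. Mmp14 (MT1-MMP), the activator of pro-MMP2 and a collagenase at the cell surface, had the second highest level of the MMPs per length. It differed little, with 13.9, 10.8 and 9.19 CPM in IRI and 13.2, 13.3 and 9.49 CPM in the congested libraries (log2 ratio 0.09, SE 0.26, edgeR adjusted p = 0.965; -0.04 without IRI 3).

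Mmp9 (gelatinase B, stored in neutrophil granules) lay at 1.67, 0.0854 and 0.0883 CPM in IRI 1, 2 and 3 and at 6.46, 1.39 and 0.392 CPM in congested ones. IRI replicates 2 and 3 held 1 count each, so the values in IRI rest almost wholly on the 21 counts of replicate 1. All 3 pairs were higher in the congested kidney (1.85, 2.64 and 1.14 on the log2 scale), and the groups overlapped. The log2 ratio was 2.10 (SE 1.25, edgeR adjusted p = 0.935), 4.82 without IRI 1, 3.23 without replicate 1 of both groups, 1.60 without IRI 2, 1.61 without IRI 3 and 0.51 without congested 1. Mmp9 and the neutrophil sums given above had the same 3 highest libraries, congested 1, IRI 1 and congested 2 in falling order, and S100a8 lay at 20.2, 1.96 and 1.06 CPM in IRI and 60.03, 4.76 and 2.51 CPM in the congested libraries. The part of neutrophils in the Mmp9 values was not tested. Mmp8, the neutrophil collagenase, was too low to test, with 8, 2 and 0 counts in IRI and 46, 3 and 3 in congested 1, 2 and 3, and it was also highest in congested 1.

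Of the remaining MMPs, Mmp11 and Mmp23 lay lower on average in the congested kidney, again without passing the test. Mmp11 (stromelysin-3) held 1.03, 3.33 and 3.71 CPM in IRI and 1.17, 1.98 and 2.51 CPM in the congested libraries (log2 ratio -0.50, SE 0.54, edgeR adjusted p = 0.935). The value was -0.20 without IRI 3, -0.26 without congested 1 and -0.89 without IRI 1. Mmp23 was lower in the congested library of all 3 pairs, with differences of -0.28, -0.28 and -0.22 on the log2 scale, from 3.42, 5.72 and 4.24 CPM in IRI and 2.78, 4.69 and 3.61 CPM in the congested libraries. The groups overlapped, with 4.46 ± 1.17 CPM in IRI and 3.69 ± 0.956 CPM in congested kidney (SD, n = 3). Its log2 ratio of -0.27 (SE 0.34, edgeR adjusted p = 0.935) was -0.05 without IRI 2 and -0.02 after length and GC removal. Mmp2, Mmp12 and Mmp28 had log2 ratios of 0.03, -0.14 and 0.18 and no library above 4.24 CPM.

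**Figure D3:**
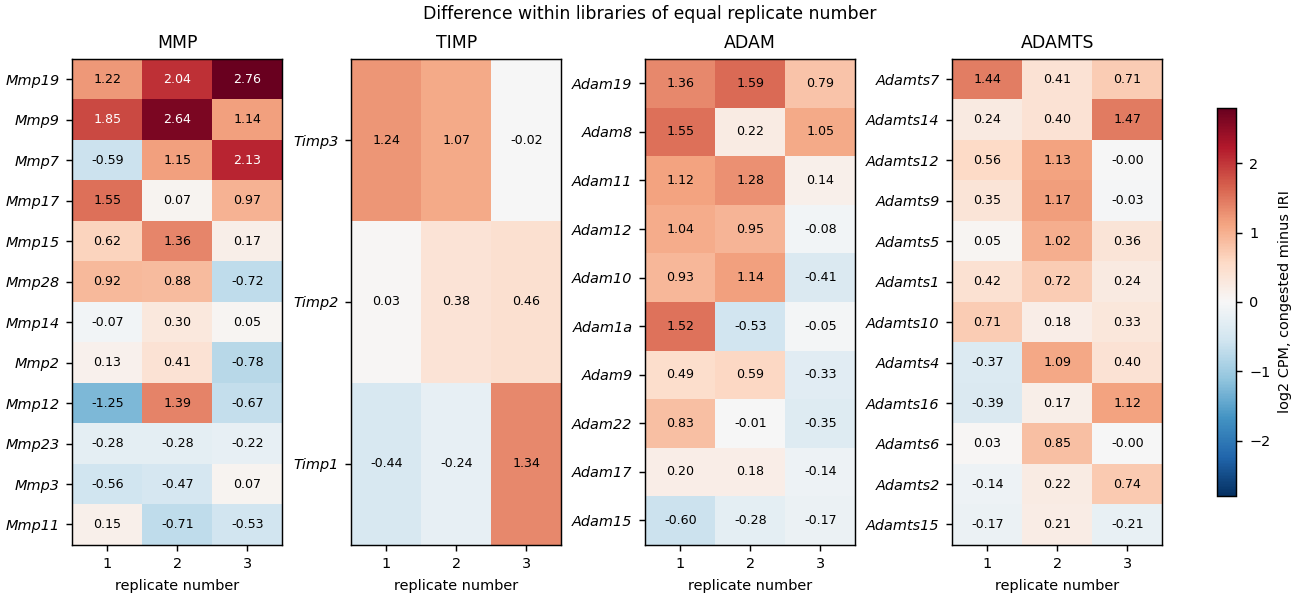
Difference in log2 CPM between the congested and the IRI library of equal replicate number (colour and printed value, red where the congested library is higher) for each tested member, with 1 column for each replicate number. Mmp19, Mmp9 and Adam19 are among those higher in all 3 pairs, Adam15 and Mmp23 lower in all 3, and several ADAM genes are higher in pairs 1 and 2 only.

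The tested members include 3 MMPs of a cluster on chromosome 9. Of the members, 8 MMP genes lie there, between bases 7272514 and 7699585 of GRCm38, in the order Mmp13, Mmp12, Mmp3, Mmp10, Mmp8, Mmp27, Mmp20 and Mmp7. RefSeq promoter windows of GRCm38.p6 (250 bases before to 50 after a transcript start) were given for all 8 and for 38 of the 62 members. These windows were searched for TGANTCA, since AP-1 is a textbook regulator of MMP promoters. With N as any base it reads the same on both strands and is a looser form of the AP-1 site TGA(C/G)TCA. All shares below are of the looser form. It was found in 6 of the 8 cluster genes (75.0%), in 2 of the 30 other members (6.67%) and in 8.97% of 27025 genes with a window. Within the 100 bases before the start it was present in the same 75.0% of cluster genes, in 0.00% of the other members and in 3.18% of all genes. A match describes letters and does not show that the factor binds. The 100 bases upstream of the start that holds the match are shown for these 6 genes because they hold the match, with the motif in capitals, on the plus strand, 5′ to 3′.
Mmp13, chr9:7272414-7272513: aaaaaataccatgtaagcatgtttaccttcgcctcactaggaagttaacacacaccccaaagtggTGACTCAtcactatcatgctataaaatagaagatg
Mmp12, chr9:7347274-7347373: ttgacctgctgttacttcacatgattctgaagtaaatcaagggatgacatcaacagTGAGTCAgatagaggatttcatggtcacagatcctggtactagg
Mmp3, chr9:7445722-7445821: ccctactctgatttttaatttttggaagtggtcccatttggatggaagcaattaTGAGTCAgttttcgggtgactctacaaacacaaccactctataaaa
Mmp10, chr9:7502242-7502341: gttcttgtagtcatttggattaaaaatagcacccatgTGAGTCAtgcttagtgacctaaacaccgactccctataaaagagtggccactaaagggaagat
Mmp20, chr9:7628131-7628230: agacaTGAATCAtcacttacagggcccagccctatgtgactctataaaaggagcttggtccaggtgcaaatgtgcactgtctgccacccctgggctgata
Mmp7, chr9:7691990-7692089: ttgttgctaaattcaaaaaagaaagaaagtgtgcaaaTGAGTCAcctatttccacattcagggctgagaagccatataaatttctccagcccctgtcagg
The motif began 35 bases before the start in Mmp13, 44 in Mmp12, 46 in Mmp3, 63 in Mmp10 and in Mmp7 and 95 in Mmp20. Mmp12 and Mmp7 each have another listed start whose window held no match, and none was found for Mmp8 or Mmp27. The sites in Mmp3, Mmp7, Mmp10 and Mmp12 read TGAGTCA. That in Mmp13 reads TGACTCA, which is TGAGTCA on the other strand. That in Mmp20 reads TGAATCA, which is outside the narrower form TGA(C/G)TCA.

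The genes that hold the motif did not share 1 pattern over the libraries. Mmp7 (matrilysin, an MMP of injured epithelia) lay at 19.5, 0.768 and 0.0883 CPM in IRI 1, 2 and 3 and at 12.9, 1.90 and 0.942 CPM in congested ones, and the untested Mmp10 at 13, 2 and 0 and at 27, 2 and 0 counts. Both were thus highest in replicate 1 of each group. Mmp3 (stromelysin-1) held 3.26, 3.41 and 0.442 CPM in IRI and 2.15, 2.42 and 0.471 CPM in the congested libraries, so it was low in replicate 3 and alike in replicates 1 and 2. Mmp12 (macrophage elastase) lay between 0.512 and 1.61 CPM with no order by replicate number, and Mmp13 had 3 to 11 counts. For congestion the log2 ratio of Mmp7 was -0.39 with SE 1.52 (edgeR adjusted p = 0.969), 0.44 with the block, 3.57 without IRI 1 and -2.24 without congested 1. That of Mmp3 was -0.50 with SE 0.80 (edgeR adjusted p = 0.938).

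**Figure D4:**
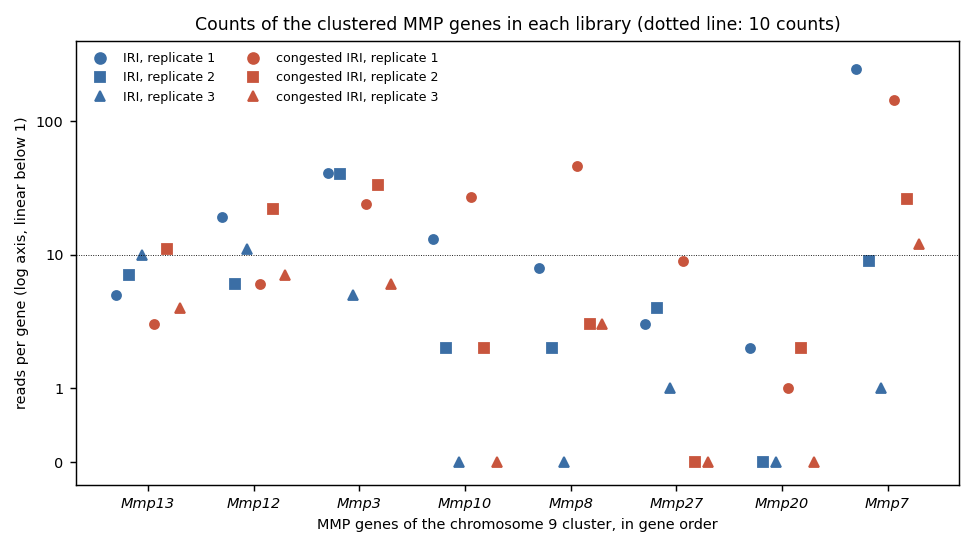
Reads per gene (vertical axis, log above 1 and linear below) for the 8 MMP genes of the chromosome 9 cluster in gene order, by library. IRI is blue, congested IRI red, and circle, square and triangle are replicates 1, 2 and 3. Mmp7 reaches 246 and 144 counts in replicate 1 and 26 at most elsewhere, and Mmp10, Mmp8, Mmp27 and Mmp20 have libraries with 0 counts.

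Of the ADAM genes, none passed the test and 9 of 10 log2 ratios were above 0, although only 3 of 10 were higher in the congested library of pair 3. Adam11, on chr11:102761439-102780262, encodes an ADAM protein without a working catalytic site. It held 4.77, 4.87 and 6.45 CPM in IRI and 10.6, 12.01 and 7.14 CPM in congested 1, 2 and 3. All congested libraries lay above all IRI libraries, but pair 3 differed by only 0.14 on the log2 scale, against 1.12 and 1.28 in pairs 1 and 2. The mean levels were 5.36 ± 0.943 and 9.91 ± 2.51 CPM (SD, n = 3), a fold of 1.85 (log2 ratio 0.89, SE 0.30, edgeR unadjusted p = 0.0186, adjusted p = 0.935).

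Adam19, Adam8 and Adam12 were highest in congested 1. Adam19 (meltrin beta, a sheddase of neuregulin) lay at 1.83, 0.597 and 0.972 CPM in IRI and at 4.94, 2.12 and 1.81 CPM in the congested libraries. Its counts were 23, 7 and 11 in IRI and 55, 29 and 23 in the congested libraries. Adam19 was higher in all 3 pairs, and IRI 1 overlapped the congested range. The log2 ratio was 1.36 (SE 0.57, edgeR adjusted p = 0.935), 0.78 without congested 1 and 1.90 without IRI 1. Adam8, which is expressed on neutrophils and other leukocytes, lay at 4.45, 4.18 and 1.501 CPM in IRI and at 13.4, 4.91 and 3.30 CPM in the congested libraries. It was likewise higher in all 3 pairs, with a log2 ratio of 1.08 (SE 0.62, edgeR adjusted p = 0.935). The ratio was 0.28 without congested 1 and 1.43 without congested 3. Congested 1 had the highest neutrophil and macrophage sums (215.6 and 315.3 CPM, the latter 103.8 to 115.5 in the others). Lyz2 alone gave 197.1 CPM of that macrophage sum. The part of neutrophils and macrophages in the Adam8 values was not tested. Adam12 (meltrin alpha) lay at 5.25, 3.76 and 2.92 CPM in IRI and at 10.95, 7.40 and 2.75 CPM in the congested libraries, and pair 3 differed by -0.08. Its log2 ratio of 0.82 (SE 0.51, edgeR adjusted p = 0.935) was 0.35 without congested 1 and 1.20 without congested 3.

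The ADAM genes of highest level per length had smaller ratios. Adam10, the main sheddase of Notch receptors and E-cadherin, held 84.0, 70.7 and 138.3 CPM in IRI and 160.1, 155.9 and 104.0 CPM in the congested libraries. Pairs 1 and 2 were higher in the congested kidney (0.93 and 1.14 on the log2 scale) and pair 3 lower (-0.41), so the groups overlapped through replicate 3. The log2 ratio was 0.52 (SE 0.31, edgeR adjusted p = 0.935), 0.86 without IRI 3 and 0.33 without IRI 2. Adam9, a sheddase of several growth factors, held 98.4, 110.5 and 168.2 CPM in IRI and 138.1, 166.3 and 134.1 CPM in the congested libraries. It too was higher in pairs 1 and 2 and lower in pair 3 (0.49, 0.59 and -0.33; log2 ratio 0.22, SE 0.26, edgeR adjusted p = 0.935). Adam17, the TNF-releasing enzyme, lay at 44.7 ± 2.57 CPM in IRI and 47.4 ± 3.90 CPM in congested kidney (SD, n = 3), with a log2 ratio of 0.08 (SE 0.18, edgeR adjusted p = 0.951). Adam15, which binds integrins through its disintegrin domain, was the only ADAM gene below 0. It held 52.1, 53.9 and 58.8 CPM in IRI and 34.4, 44.5 and 52.1 CPM in the congested libraries, lower in all 3 pairs, and the groups met at 52.1 CPM in congested 3 and 52.05 in IRI 1 (log2 ratio -0.33, SE 0.21, edgeR adjusted p = 0.935; -0.18 without congested 1).

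Of the ADAMTS genes, 11 of 12 were above 0 by small amounts and none passed the test. Adamts1, a versican- and aggrecan-cutting enzyme and the highest of the family per length, held 120.3, 60.3 and 56.6 CPM in IRI and 161.1, 99.5 and 67.1 CPM in congested 1, 2 and 3. It was higher in all 3 pairs (0.42, 0.72 and 0.24) but the groups overlapped, with IRI 1 above congested 2 and 3. Its log2 ratio of 0.46 had SE 0.41 without and 0.19 with the block (edgeR adjusted p = 0.935 and 0.578), and was 0.08 without congested 1 and 0.90 without IRI 1. Adamts7, which cuts cartilage oligomeric matrix protein, lay at 0.556, 1.45 and 1.33 CPM in IRI and at 1.80, 1.98 and 2.28 CPM in the congested libraries (7, 17 and 15 against 20, 27 and 29 counts). The groups did not overlap, and the log2 ratio was 0.86 (SE 0.44, edgeR adjusted p = 0.935).

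Adamts9 and Adamts5, further proteoglycan-cutting enzymes, had log2 ratios of 0.44 (SE 0.30) and 0.49 (SE 0.34), both at an edgeR adjusted p of 0.935. In Adamts9 all libraries but IRI 2 (8.28 CPM) lay between 15.5 and 19.8 CPM (15.5 and 17.6 in IRI 1 and 3, and 19.8, 18.8 and 17.3 in congested 1, 2 and 3), and without that library its log2 ratio was 0.17. Adamts5 held 7.55, 4.95 and 4.42 CPM in IRI and 7.81, 10.2 and 5.73 CPM in the congested libraries, and its log2 ratio was -0.002 after length and GC removal and 0.26 without congested 2. The median of the ADAMTS family was 0.24 after that removal, against 0.45. Adamts14, a procollagen N-proteinase, held 1.11, 0.683 and 0.265 CPM in IRI and 1.35, 0.952 and 1.02 CPM in the congested libraries, and Adamts12 0.556, 0.683 and 1.41 against 0.897, 1.69 and 1.41 CPM. Both overlapped between groups and had log2 ratios of 0.66 (SE 0.54) and 0.60 (SE 0.49) at an edgeR adjusted p of 0.935 each. Adamts15, with 6.20, 12.3 and 13.5 CPM in IRI and 5.47, 14.2 and 11.7 CPM in the congested libraries, was low in replicate 1 of both groups. Its log2 ratio was below 0 at -0.02 (SE 0.43, edgeR adjusted p = 0.992), and above 0 with total counts in place of TMM factors (0.06) and without congested 1 (0.28), IRI 3 (0.18) or IRI 2 (0.09). Adamts2, Adamts4, Adamts6, Adamts10 and Adamts16 lay between 0.24 and 0.50.

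A larger number of members differed between replicate numbers than the 0 called between groups. In edgeR with group and number as terms, 5 of 37 members (13.5%) passed at an adjusted p under 0.05, against 7.94% of all genes: Mmp7, Mmp9, Timp1, Mmp3 and Adamts1. Adjusted p-values were 0.00765, 0.0114, 0.0142, 0.0254 and 0.0350 in that order. The mean of both replicate 1 libraries minus that of the other 4 was 4.23 for Mmp7, 2.85 for Mmp9, 2.12 for Timp1, 1.04 for Mmp3 and 1.01 for Adamts1 on the log2 CPM scale. The opposite sign was seen in Timp3 (-1.09) and Adamts15 (-1.12), whose edgeR adjusted p-values between numbers were 0.116 and 0.0566. It was not particular to them. Values of like size were found in Mmp11 (-1.23), Adamts16 (-1.13), Adamts10 (-1.11), Mmp28 (-1.11), Adam22 (-1.095) and Mmp2 (-1.09), none of which passed. No ADAM gene passed this test, with Adam8 nearest at an adjusted p of 0.0617. Markers also differed between numbers, against the same 7.94% of all genes: 6 of 6 of injured tubule, 4 of 4 tested of neutrophils, 6 of 7 of proximal tubule, 3 of 10 of macrophages, 3 of 7 of fibroblasts and pericytes, and 3 of 5 of collecting duct. Thick ascending limb and distal convoluted tubule had 2 of 4 each, lymphocytes 1 of 1 tested, smooth muscle 1 of 5 and endothelium 1 of 7. Podocytes had 0 of 5 and red blood cells 0 of 4. As the sums given above show, injured-tubule and neutrophil markers were high in replicate 1 like Mmp7 and Timp1. Proximal tubule markers were low there like Timp3, Adamts15 and the other members of that sign. Low values in replicate 1 were not particular to proximal tubule. Replicate 1 minus the others was -3.64 for Slc12a1 (thick ascending limb), -3.40 for Pvalb (distal convoluted tubule) and -4.07 for Slc4a1 (collecting duct). It was -3.09 for Dpt (fibroblast) and -1.52 for Myh11 (smooth muscle). Fxyd4 (collecting duct, 0.65) and Acta2 (smooth muscle, 0.71) had the opposite sign. The part of any of these cell types in the members' values was not tested.

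**Figure D5:**
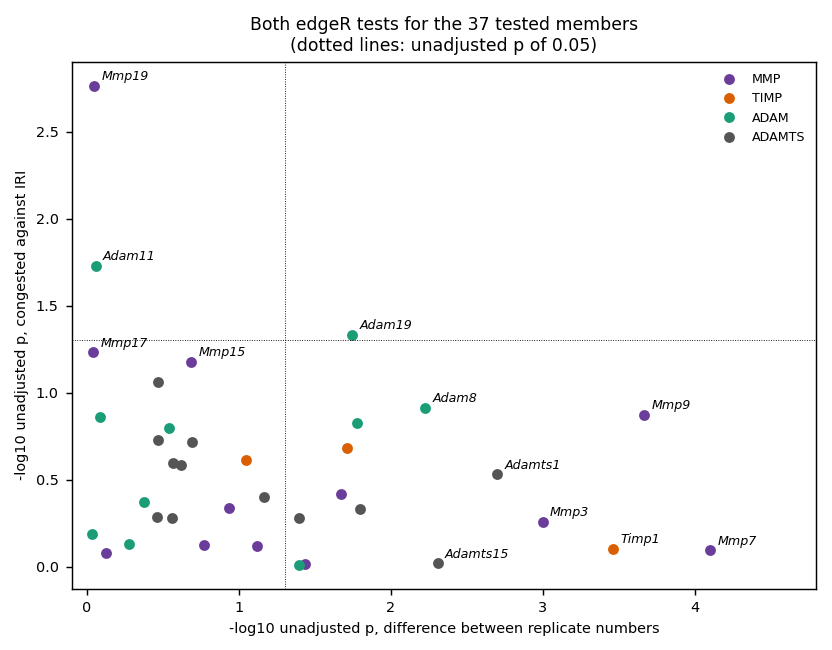
For each of the 37 tested members, -log10 of the unadjusted edgeR p between replicate numbers (horizontal axis) and between congested IRI and IRI (vertical axis), coloured by family, with dotted lines at 0.05. Mmp19 and Adam11 are high on the vertical axis alone, whereas Mmp7, Timp1, Mmp9, Mmp3 and Adamts1 are far to the right, and Adam19 alone is past both lines.

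Of the 25 members too low to test, 8 were MMP, 1 TIMP, 11 ADAM and 5 ADAMTS genes. The untested ADAMs were Adam1b, Adam2, Adam3, Adam4, Adam5, Adam7, Adam21, Adam23, Adam28, Adam32 and Adam33, several of which are known from testis and sperm. Among them Adam28 reached 30 counts in congested 2 and 9 at most elsewhere. Adamts3, Adamts8, Adamts13, Adamts17 and Adamts20 had at most 12 counts in any library. The MMPs of this kind were Mmp8, Mmp10, Mmp13, Mmp16, Mmp20, Mmp24, Mmp25 and Mmp27. Mmp25, another leukocyte MMP, held 0, 0 and 2 counts in IRI and 6, 2 and 1 in the congested libraries. No difference is read from these counts.

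Other genes of the pathway were read from 6 lists, and edgeR called 0 of their 71 tested members for congestion. Matrix proteins cut by MMP and ADAMTS enzymes lay above 0 in 10 of 10 tested genes (median log2 ratio 0.38, against 0.00 over all genes), with Fn1 (fibronectin, 0.88, SE 0.30) and Vcan (versican, 1.94, SE 0.84) having the smallest p. The groups did not overlap in Fn1, whose ratio was 0.63 without replicate 1 of both groups. Vcan held 1.11, 2.05 and 1.15 CPM in IRI and 11.8, 4.03 and 0.863 CPM in the congested libraries, so the groups overlapped, and without congested 1 its ratio was 0.76. Other inhibitors and clearance proteins lay above 0 in 6 of 9 (median 0.18). Among them Thbs1 (thrombospondin-1) held 75.2, 56.1 and 72.7 CPM in IRI and 140.7, 92.9 and 110.6 CPM in the congested libraries, with no overlap (log2 ratio 0.75, SE 0.24, edgeR adjusted p = 0.935), and Tfpi2 had 0.59 (SE 0.35; 0.25 without congested 2). Activating proteases and the plasminogen system lay above 0 in 3 of 11 (median -0.20), led by the inhibitor gene Serpine2 (-0.46, SE 0.24) and Bsg (basigin, an MMP inducer, -0.32, SE 0.24).

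Partners of ADAM10 and ADAM17 lay above 0 in 6 of 8 tested genes (median 0.10), with Rhbdf1 and Tspan14 at 0.19 and 0.14. Substrates of the shedding enzymes lay above 0 in 13 of 20 (median 0.03), with Notch1 at 0.96 (SE 0.56; 1.88 without IRI 3 and 0.59 without IRI 1) and the chemokine gene Cx3cl1 at 0.29 (SE 0.19). Other metallopeptidases and ADAMTS-like genes lay above 0 in 9 of 13 (median 0.30), with Adamtsl1 at 1.10 (SE 0.52; 0.73 without congested 2) and Adamtsl5 at 0.65 (SE 0.37). Between replicate numbers 18 of the 71 tested genes in these lists differed at an adjusted p under 0.05 in edgeR, against 7.94% of all genes. They include the brush-border metallopeptidase genes Mep1a and Mep1b, at 703.1 and 11.3 CPM in IRI 1 and 2772 and 271.9 CPM in IRI 3. The meprin genes thus had the direction of Timp3 over the replicate numbers.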

How the data were processed

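The deposited table holds counts, whole numbers of reads per gene and not normalized, as their values show. Per the submitters' processing notes, the tools and build were STAR 2.7.10a, featureCounts, Subread and GRCm38, whose roles are not stated. The library kit keeps strand, per the labels' protocols. How strand and multiply mapped reads were counted, and with which annotation, is not given in the sources used here. Genes with overlapping exons (14 of the 37 tested members) may therefore share reads.

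Members and gene lists were chosen with earlier results of these data known. The test was edgeR's (version 4.0.16, R 4.3.3; TMM factors, features with 10 or more counts in 3 or more libraries, robust quasi-likelihood F test, group as term, Benjamini-Hochberg over 14398 genes, called at adjusted p under 0.05), checked on simulated data. Standard errors are the log2 ratio over the root of F. CPM are TMM-scaled, log2 CPM used a prior count of 2, and levels per kb the union of exons in GENCODE M21 (GRCm38), which matched all 62 members. Features with an identifier in place of a symbol (258, 0.0272% of counts) were kept.

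Named with full values were the 3 tested TIMPs, in each other family the 5 members with the smallest p and the 3 highest per length, those called in any planned fit, and the 5 with the smallest p between replicate numbers, 26 in all, and the 2 genes of each list with the smallest p. Other genes, among them Adam17, Mmp2, S100a8, Acta2, Cdh5, Mep1a, Mep1b and the untested members, were chosen for naming once their values were known.

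Replicates are numbered 1 to 3 in both groups. Deviations from the group means correlated at 0.719, 0.342 and 0.427 between libraries numbered 1, 2 and 3, each over 0.1, so the numbers were taken to pair the libraries, which the labels do not say. Replicates 2 and 3 also correlated when crossed, at 0.395 for IRI 2 with congested 3 and 0.242 for IRI 3 with congested 2. Both are over 0.1 too, so this measure could not tell pairs 2 and 3 from the crossed ones. Alternatives were other scaling, filters, DESeq2 1.42.0, limma-voom (limma 3.58.1), no robust dispersion, the block, removal of a length and GC dependence (mgcv 1.9.3), and libraries left out.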

Additional observations from a re-analysis of the deposited data

How the results depend on the processing

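No member was called in any fit without the replicate block, and none by edgeR, DESeq2 or limma-voom with the block and all 6 libraries. DESeq2 with the block called 10 genes of the whole table, none of them a member. Leaving 1 replicate number out of both groups in edgeR with the block gave 9 to 5487 called genes and 0 to 13 called members, in fits with 1 residual degree of freedom. The block changed no other call. Counts of members above 0 moved by over 1.5 times only where the filter changed the number tested: 4 MMPs and 7 ADAMTS genes with 10 counts in all 6 libraries, and 13 MMPs and 16 ADAMs with no filter, where the TIMP median was 0.044. After length and GC removal the ADAMTS median was 0.24.

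Among the members given with full values, signs of uncalled genes turned as follows. Mmp7 (-0.39) was 1.06 in limma-voom, 0.44 with the replicate block, 0.75 in DESeq2 with the block, 0.16 in limma-voom with the block, 0.13 after length and GC removal, 0.76 with block and that removal, 1.704 without replicate 1 of both groups, and with the block 1.82 without replicate 1 and 0.13 without replicate 2. Timp1 (-0.25) was 0.19, 0.11, 0.14, 0.008, 0.31, 0.49, 0.095, 0.48 and 0.35 in the same order. Adamts15 (-0.02) was 0.065 with total counts, 0.008 without replicate 1 of both groups, and with the block 0.004 without replicate 1 and 0.035 without replicate 3. Adamts5 (0.49) was -0.002 after length and GC removal, and Mmp14 (0.09) was -0.016 with the block and without replicate 2. Of the other tested members Mmp2 (0.03) was -0.06 with the replicate block. With 1 library left out, Mmp7 ran from -2.24 to 3.57, Timp1 from -0.94 to 0.79, Adamts15 from -0.31 to 0.28 and Mmp14 from -0.042 to 0.27. The causes were not tested. Of the members given with full values, Mmp3, Mmp7, Mmp9, Mmp11, Mmp17, Mmp19, Adam8, Adam19, Adamts7, Adamts12 and Adamts14 have libraries under 20 counts. Single reads move the values there.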
